A study of Homo sapiens with 12 samples.

Results

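The MHC class I antigen presentation genes were followed across 12 RNA sequencing libraries as 9 members, namely HLA-B, HLA-C, HLA-E, B2M, TAP1, TAP2, TAPBP, NLRC5 and PSMB9. A member was the row of the raw count table that carries its gene symbol, and all 9 were found among 57500 gene rows, each under 1 gene identifier. The series holds 4 groups of 3 libraries, which the labels call biological replicates, from 3 established human cancer cell lines. SW480 was derived from a primary colorectal cancer and SW620 from a metastatic site of the same patient, and both grew untreated in DMEM. PEO4, an ovarian cancer line from another person, grew in RPMI 1640 either as control or with TGF-β at 10 ng/mL for 6 days. All media held fetal bovine serum and penicillin with streptomycin, and no library was treated with a drug. Each line stands for 1 donor, and no stromal or immune cells are described as part of the cultures. The series title concerns the drugs cediranib and NU-7441 in primary and metastatic colorectal cancer, and the comparisons below are those that the 4 groups allow.

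Class I molecules show peptides from inside the cell to cytotoxic T cells and natural killer cells. Proteasomes cut proteins into peptides, the TAP transporter carries the peptides into the endoplasmic reticulum, and tapasin (TAPBP) helps load them onto a heavy chain paired with β2-microglobulin (B2M). Interferon raises most of these genes through factors such as IRF1 and the coactivator NLRC5, and reduced class I expression is a known way by which tumours escape T cells.

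The stretches upstream of the start sites are shown because the genes are known to share promoter elements and because the members' levels are compared gene by gene. Of the 9 members, 7 had a promoter entry from RefSeq (GRCh38.p14, 250 bases before to 50 after the start), while HLA-E and NLRC5 had none. Capitals mark matches, on either strand, to the interferon-response letters GAAANNGAAA or GAANNGAAA, to the κB consensus, to CCAAT or to TGACG, and overlapping matches run together. The printed stretches are chr6:31357225-31357364 (minus strand) for HLA-B, chr6:31272138-31272277 (minus) for HLA-C, chr15:44711362-44711478 (plus) for B2M, chr6:33314079-33314148 (minus) for TAPBP, chr6:32853755-32853844 (minus) for TAP1, chr6:32838765-32838809 (minus) for TAP2 and chr6:32854037-32854101 (plus) for PSMB9. Each is written 5′ to 3′ along its gene.
HLA-B: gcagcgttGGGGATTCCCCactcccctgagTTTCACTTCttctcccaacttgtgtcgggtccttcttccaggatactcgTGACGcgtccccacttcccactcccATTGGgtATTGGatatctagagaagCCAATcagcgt
HLA-C: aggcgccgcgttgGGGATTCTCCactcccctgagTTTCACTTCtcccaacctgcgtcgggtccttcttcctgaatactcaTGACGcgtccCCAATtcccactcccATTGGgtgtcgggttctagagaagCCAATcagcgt
B2M: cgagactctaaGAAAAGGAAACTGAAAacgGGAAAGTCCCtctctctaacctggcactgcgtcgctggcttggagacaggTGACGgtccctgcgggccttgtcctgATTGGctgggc
TAPBP: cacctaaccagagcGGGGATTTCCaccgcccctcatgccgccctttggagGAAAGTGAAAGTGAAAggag
TAP1: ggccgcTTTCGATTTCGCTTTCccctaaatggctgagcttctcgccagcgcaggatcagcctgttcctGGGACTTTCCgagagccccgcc
TAP2: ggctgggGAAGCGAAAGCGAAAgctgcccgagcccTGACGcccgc
PSMB9: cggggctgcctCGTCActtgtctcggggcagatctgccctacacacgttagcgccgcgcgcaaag

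The HLA-B and HLA-C stretches line up, with a κB match, an interferon-response match, a TGACG and CCAAT boxes in the same order, and their 300-base promoters were 88.5% identical over 304 aligned columns. B2M, TAPBP, TAP1 and TAP2 held GAAANNGAAA, a run found in 3.57% of the 35116 RefSeq promoter windows of the same length. GAANNGAAA, which HLA-B, HLA-C and TAP2 held, was in 7.66% of these windows, the κB consensus in 11.3%, TGACG in 24.6% and CCAAT in 34.6%. In the PSMB9 stretch the capitals mark TGACG on the opposite strand. The 300-base windows held further matches outside the printed stretches. These were CCAAT at 192 (HLA-C), 249 (TAP1) and 243 (PSMB9) bases upstream, and a κB match 22 bases after the TAP1 start. TAP1 and PSMB9 start on opposite strands with 487 bases between their start sites. TTCNNNGAA, the GAS letters, was in 7.66% of windows and had a match only in a second TAP1 entry with another start. These matches describe letters in a window and are not binding sites.

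In GENCODE 29 (GRCh38), 7 members lie on chromosome 6, while B2M is on chromosome 15 (44711487 to 44718877) and NLRC5 on chromosome 16 (56989485 to 57083531). The HLA-B gene model (31269491 to 31357188) runs over HLA-C (31268749 to 31272130) and shares exon bases with it. The PSMB9 model (32844136 to 32859585) shares exon bases with PSMB8 and PSMB8-AS1, the TAP1 model (32845209 to 32853978) with PSMB8-AS1, and the TAP2 model (32821833 to 32838780) with AL669918.1. HLA-E (30489467 to 30494205) and TAPBP (33299694 to 33314387) overlap no other gene. Since strand use in counting is not given and HLA genes resemble one another, the counts of HLA-B, HLA-C, HLA-E, TAP1, TAP2 and PSMB9 are uncertain to that extent. HLA alleles differ between people, and whether reads of each line's own alleles were counted equally well was not tested.

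Library totals ranged from 14.5 to 22 in units of 1e6 gene-assigned counts. The summed level of 4 colorectal markers was 34.4 to 55.2 CPM in SW480, 181 to 290 in SW620 and at most 2.5 in PEO4, and that of 3 Müllerian markers was 1080 to 1460 CPM in PEO4 and 57.3 to 128 in the SW lines. CPM stands here for counts per 1e6 counts of a library after TMM scaling of its total. The 8 immune cell markers together reached 1.69 to 7.84 CPM in SW620, 1.92 to 2.73 in SW480, 4.01 to 6.59 in PEO4 control and 4.84 to 7 with TGF-β, with 1 of the 8 at 0 in every library of each group except SW620, where none was. The summed level of 3 fibroblast markers was 7.14 to 14.5 CPM in SW620, 1.88 to 2.22 in SW480 and 0.628 to 2.25 in PEO4. In SW620 the immune marker PTPRC held 4, 50 and 108 counts in replicates 1, 2 and 3. Its level in replicate 3, 5.10 CPM, was above that of every PEO4 library (at most 2.95 CPM). The part of these markers in the results was not tested.

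Some libraries stood apart in the members themselves. In both SW lines replicate 2 held the lowest level of 8 members, and NLRC5 was highest in that replicate. These libraries also differed in genes outside the members. The RNA KCNQ1OT1 stood at 230, 546 and 205 CPM in SW480 replicates 1, 2 and 3, and at 494, 1020 and 236 CPM in SW620. Protein-coding genes held 93.9% of counts in SW480 replicate 2 and 92.7% in SW620 replicate 2, the lowest share of each line. The part of this in the members' levels was not tested. SW620 replicate 3 held the highest level of 7 members. The same library also carried 202 counts of 21 genes that had at most 3 counts in each of the 5 other SW libraries and at least 20 CPM in every PEO4 library. This amounts to 1.23% of the PEO4 level. The same genes stood at 0.184% in the 5 others, a value that the choice of genes keeps low. For every other library 0 genes met the matching rule, so no such share could be measured there. A share of 1.23% would supply 1.32% (TAP1) to 2.86% (PSMB9) of the members' counts in SW620 replicate 3.

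Per kilobase of the union of all annotated exons, HLA-C had the highest level of the members in all 4 groups, followed by TAPBP and B2M. This order depends on the lengths used, 2507 bases for HLA-C and 6079 for B2M, since in CPM before the division B2M was above HLA-C by group mean in all 4 groups. In CPM per kb, HLA-C reached 48.5 ± 9.21 in SW480, 44.3 ± 18.8 in SW620, 118 ± 16.6 in PEO4 control and 131 ± 19.6 after TGF-β (SD, n = 3). HLA-B and HLA-E took the next places, with HLA-B above HLA-E by group mean in 3 groups, while in SW620 HLA-E stood at 11.5 ± 4.24 and HLA-B at 10.9 ± 4.38 CPM per kb, well within the spread. TAP1 and TAP2, the paired subunits of the peptide transporter, followed. NLRC5, the coactivator of class I genes, and PSMB9, a catalytic subunit of the immunoproteasome, were lowest, at 0.688 to 3.01 CPM per kb as group means.

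**Figure D1:**
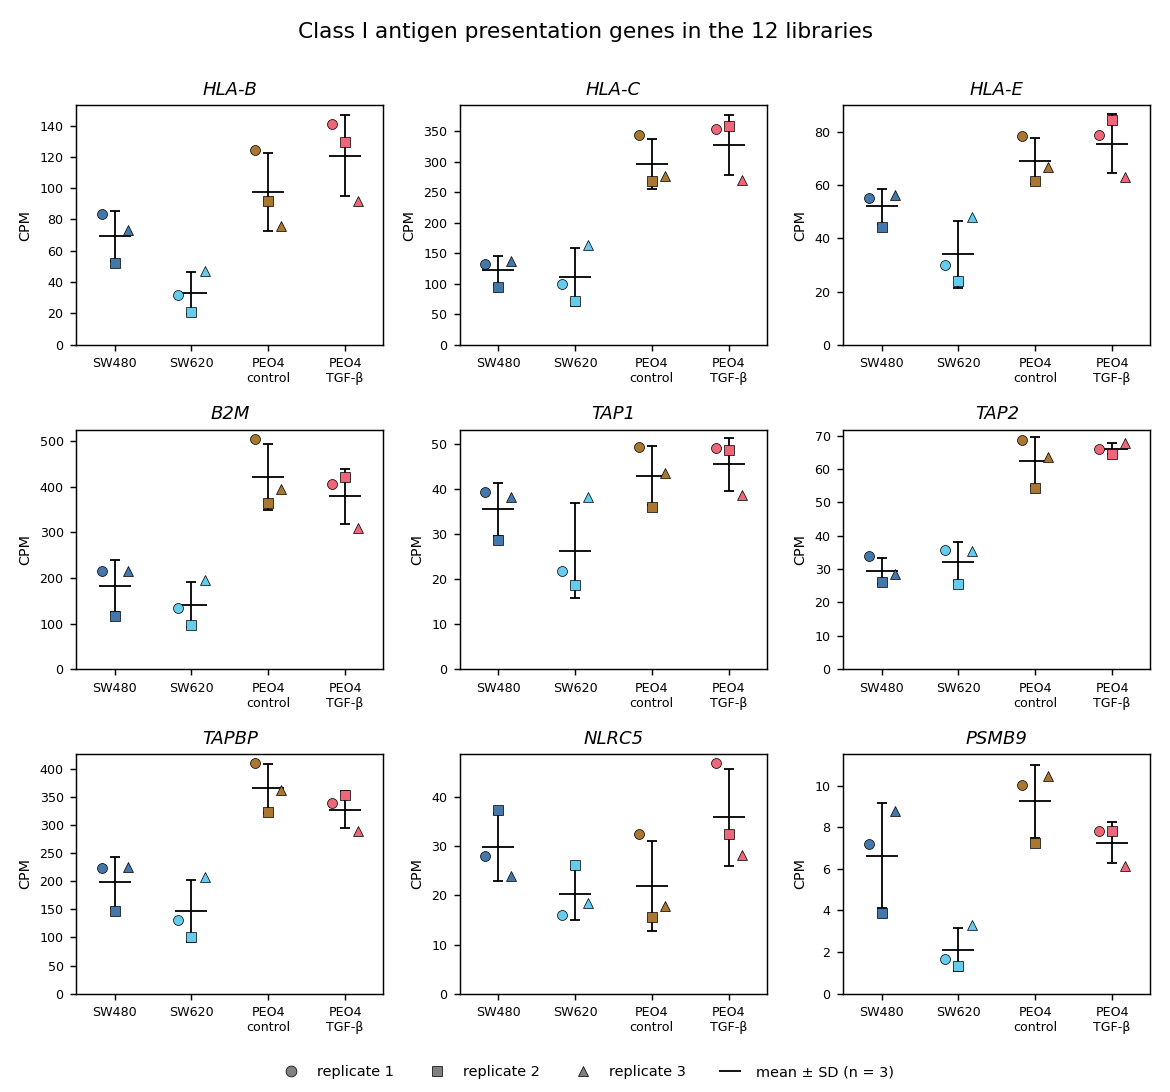
Level of each member in CPM (vertical axes from 0) in the 12 libraries, by group; symbols are replicates, and bars are the mean and SD of 3. PEO4 libraries lie above the SW libraries for HLA-C, HLA-E, B2M, TAP2 and TAPBP, and SW620 lies below SW480 without overlap for HLA-B and PSMB9.

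SW620 was compared with SW480 to ask how the class I pathway differs between the metastatic and the primary line. HLA-B and PSMB9 were lower in SW620, HLA-B by 2.07-fold and PSMB9 by 3.08-fold, and the other 7 members did not pass the test. HLA-B encodes one of the classical heavy chains, and PSMB9 (LMP2) replaces a constitutive catalytic subunit when the immunoproteasome is built. By edgeR's quasi-likelihood test, 2 of 9 members had an adjusted p under 0.05, both lower, beside 30.5% of all 20941 genes tested (17% lower). The members' median log2 fold change was -0.42 and that of all genes 0.03. With 3 libraries against 3, a two-sided exact permutation test of a single gene cannot go below p = 0.1.

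HLA-B stood at 83.3, 51.9 and 73.3 CPM in SW480 replicates 1, 2 and 3, and at 31.4, 20.7 and 47.3 CPM in SW620. All SW620 libraries were below all SW480 libraries, the nearest being SW480 replicate 2 and SW620 replicate 3. The fitted log2 difference was -1.05 ± 0.28 (SE), with an adjusted p of 0.0195 by edgeR. The authors' deposited table gives HLA-B a log2 fold change of -1.06 and an adjusted p of 0.00264.

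PSMB9 stood at 7.22, 3.86 and 8.81 CPM in SW480 and at 1.69, 1.34 and 3.31 CPM in SW620. Again the groups did not overlap, with the same 2 libraries nearest to each other, and the SW620 values rest on 35, 26 and 70 counts. Its log2 difference was -1.62 ± 0.42 (adjusted p = 0.0168, edgeR), and the authors' deposited table has -1.64 with an adjusted p of 0.00125. Replicate values that do not overlap, as for these 2 members, occurred in 44.2% of all tested genes, 23.4% in the lower direction. Both calls were lost without SW480 replicate 1 (adjusted p of 0.1 for HLA-B and 0.0678 for PSMB9), without SW480 replicate 3 (0.0636 and 0.0761) and without SW620 replicate 1 (0.11 and 0.0911). Across 17 alternatives the adjusted p ran from 1.45e-07 to 0.11 for HLA-B and from 3.39e-06 to 0.0911 for PSMB9. Both low ends come from the GC correction with replicate number as block, though replicate numbers were not taken as pairs. Among fits with no block the lowest were 0.00119 and 0.000986, by edgeR with no count filter.

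HLA-E, the ligand of the NKG2A receptor of natural killer cells, stood at 55.3, 44.4 and 56.4 CPM in SW480 and at 30.0, 24.0 and 48.2 CPM in SW620. Only SW620 replicate 3 reached into the SW480 range, and the log2 difference of -0.59 ± 0.23 had an adjusted p of 0.0899. Without that library HLA-E, TAP1 and TAPBP had log2 differences of -0.90, -0.76 and -0.74 and adjusted p of 0.00467, 0.0132 and 0.0379 by edgeR. This brought the called members to 5, beside 32.8% of 22609 genes tested. HLA-E was also called with total-count scaling (adjusted p = 0.0232), with at least 10 counts in every library (0.0476) and with all 12 libraries in 1 model (0.031). Without SW620 replicate 2, NLRC5 was called beside HLA-B and PSMB9, at -0.74 (adjusted p = 0.0292), and likewise without both SW libraries numbered 2, at -0.57 (0.03), a setting chosen after seeing the data that called 3 members and 7532 genes.

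The values that missed the threshold differed in size. HLA-C stood at 132, 95.1 and 138 CPM in SW480 and at 99.3, 71.0 and 163 CPM in SW620, a log2 difference of -0.11 ± 0.28. B2M (-0.34 ± 0.29), TAP1 (-0.41 ± 0.25), TAPBP (-0.42 ± 0.27) and NLRC5 (-0.53 ± 0.25) had negative estimates, and TAP2 was at 0.15 ± 0.18. Their adjusted p ran from 0.154 to 0.804 by edgeR. In simulated data with 200 changed genes, a 2-fold change was recovered in 24% of changed genes. The real comparison called 6385 genes, which makes the adjusted threshold less strict than in the simulation. The 24% therefore does not give the share detectable here, and a missed threshold does not show equal levels.

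Ratios of counts within a library do not depend on its total. They were picked after the values were seen and are given without a test. HLA-B over HLA-C was 0.632, 0.546 and 0.532 in SW480 and 0.316, 0.292 and 0.290 in SW620. In SW620 replicate 3, whose HLA-B level was the highest of its group, this ratio was as low as in the other SW620 libraries. PSMB9 over B2M was 0.0335, 0.0332 and 0.0410 in SW480 and 0.0126, 0.0140 and 0.0169 in SW620. TAP1 over PSMB9, the divergent gene pair, was 5.45, 7.44 and 4.35 in SW480 and 12.9, 14.0 and 11.6 in SW620. Each of these ratios separated the 2 lines without overlap. Of the 8 ratios of a member to B2M, 3 did not overlap (HLA-B, HLA-E and PSMB9, all lower in SW620). Of all tested genes set over B2M, 33.5% did not overlap, 13.2% in the lower direction.

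Other genes of the pathway were taken from 5 lists. Of their 59 tested genes, 17 (28.8%) were called between the SW lines, close to the 30.5% of all genes. Of 6 tested heavy-chain and class I-like genes outside the members, 2 were lower in SW620, namely MICA, a stress-induced ligand of NKG2D, at -1.26 ± 0.23 (adjusted p = 0.00318), and HLA-F at -1.0 ± 0.28 (0.0248), and none was higher. None of the 8 proteasome genes passed (0 also at an unadjusted p under 0.05), so PSMB9 was called in SW620 without a call on PSMB8, its partner subunit, whose levels were 12.6, 7.67 and 13.2 CPM in SW480 and 7.76, 4.70 and 10.4 CPM in SW620. PSMB9 over PSMB8 was 0.504 to 0.667 in SW480 and 0.217 to 0.318 in SW620. Of 8 genes of peptide loading and trimming, 2 were lower, the trimming peptidase ERAP1 (-0.72 ± 0.16, adjusted p = 0.0084) and LNPEP (-0.56 ± 0.19, 0.0483).

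Of 22 transcription factor and interferon signalling genes, 4 were lower and 1 higher in SW620, with a list median of -0.10. The lower ones of largest change were SOCS1, a feedback inhibitor of JAK signalling (-1.42 ± 0.42, adjusted p = 0.0306), RFXAP, a subunit of the RFX factor that binds class I and class II promoters (-0.76 ± 0.23, 0.0344), and the kinase JAK2 (-0.75 ± 0.23, 0.0386). Of 15 tested interferon-stimulated genes, 7 were lower and 1 higher, with a median of -0.52, beside 0.03 over all genes. IFI27 stood at 8.03, 6.48 and 10.8 CPM in SW480 and at 0.627, 0.980 and 1.80 CPM in SW620, and UBE2L6, the E2 enzyme for ISG15, at 18.8, 12.6 and 22.3 and at 1.54, 1.91 and 5.95 CPM. IFITM1 stood at 11, 5.17 and 13.2 CPM in SW480 and at 0.0964, 0.155 and 1.23 CPM in SW620, where replicate 3 was the highest library for all 3 of these genes. The PEO4-like share of 1.23% in that library would supply 41.9 counts of IFI27, of which it held 38, 14.6 of its 26 counts of IFITM1 and 36 of its 126 counts of UBE2L6.

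In PEO4, TGF-β was compared with control to ask how 6 days of the cytokine, which is known to dampen immune recognition in many settings, moved the class I genes. No member passed the test in either direction. NLRC5 had the largest estimate, 1.59-fold higher with TGF-β, and PSMB9 the lowest, at 0.759-fold, while the 3 heavy chains, B2M, both TAP genes and TAPBP had estimates between 0.868-fold and 1.20-fold. By edgeR 0 of 9 members were called, beside 2.26% of 19064 genes (1.27% higher and 0.991% lower), and 2 members (NLRC5 and PSMB9) had an unadjusted p under 0.05, as had 3175 of all genes. DESeq2 and limma-voom also called 0 members. The members' median log2 fold change was 0.04 and that of all genes -0.02.

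NLRC5 stood at 32.5, 15.5 and 17.9 CPM in the control replicates and at 47.0, 32.4 and 28.3 CPM with TGF-β. Control replicate 1 was the one control library inside the treated range. The log2 difference was 0.67 ± 0.27 with an adjusted p of 0.249 by edgeR, and the authors' deposited table gives 0.67 with an adjusted p of 0.0994. Without control replicate 1 the estimate was 1.05 and the adjusted p 0.0254, and without a filter on low counts the adjusted p was 0.000517. Over 16 alternatives its log2 difference ranged from 0.42 to 1.05 and its adjusted p from 4e-04 to 0.636, and it was called in 4 of them. The other calls among these used replicate number as block, without and with the GC correction, and the 4e-04 is the value with the block alone. Replicate numbers were not taken as pairs.

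PSMB9 stood at 10.1, 7.25 and 10.5 CPM in control and at 7.83, 7.83 and 6.14 CPM with TGF-β, with control replicate 2 inside the treated range (-0.40 ± 0.17, adjusted p = 0.294). TAPBP stood at 410, 323 and 364 CPM in control and at 339, 355 and 290 CPM with TGF-β, a log2 difference of -0.20 ± 0.10 (adjusted p = 0.33). On this scaling control replicate 2 was inside the treated range, whereas on the scaling of the 6 PEO4 libraries alone TAPBP was the 1 member whose replicates did not overlap, all treated libraries being lower, as in 10.3% of all tested genes (21.5% in either direction).

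Among the heavy chains, HLA-B stood at 125, 91.5 and 75.7 CPM in control and at 141, 130 and 91.7 CPM with TGF-β (0.26 ± 0.19, adjusted p = 0.531). HLA-C stood at 344, 268 and 277 CPM in control and at 354, 358 and 271 CPM with TGF-β (0.10 ± 0.12, 0.74). In both genes the ranges overlapped, and control replicate 1 was the highest of its group and treated replicate 3 the lowest. The same 2 libraries were the highest control for 8 members and the lowest treated for 8 members. B2M (-0.20 ± 0.13), HLA-E (0.08 ± 0.11), TAP1 (0.04 ± 0.12) and TAP2 (0.04 ± 0.09) had adjusted p of 0.497 to 0.913. A simulated 2-fold change was recovered in 58% of changed genes in this design.

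Set over B2M in the same library, more members separated. HLA-C over B2M was 0.682, 0.735 and 0.700 in control and 0.872, 0.847 and 0.874 with TGF-β. HLA-B over B2M was 0.247, 0.251 and 0.191 in control and 0.348, 0.307 and 0.296 with TGF-β, and HLA-E over B2M was 0.156 to 0.169 and 0.195 to 0.204. NLRC5 over B2M was 0.0644, 0.0426 and 0.0453 in control and 0.116, 0.0768 and 0.0913 with TGF-β. Of the 8 ratios to B2M, 6 did not overlap. HLA-B, HLA-C, HLA-E, TAP1 and NLRC5 were higher relative to B2M with TGF-β and PSMB9 was lower. Of all tested genes set over B2M, 23.7% did not overlap (21.9% higher and 1.81% lower). PSMB9 over B2M nearly touched, at 0.0199, 0.0199 and 0.0265 in control and 0.0193, 0.0185 and 0.0198 with TGF-β. TAP1 over PSMB9 was 4.90, 4.98 and 4.15 in control and 6.26, 6.21 and 6.30 with TGF-β. These ratios were chosen after the values were seen, carry no test, and show unequal change between genes rather than which gene moved.

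**Figure D2:**
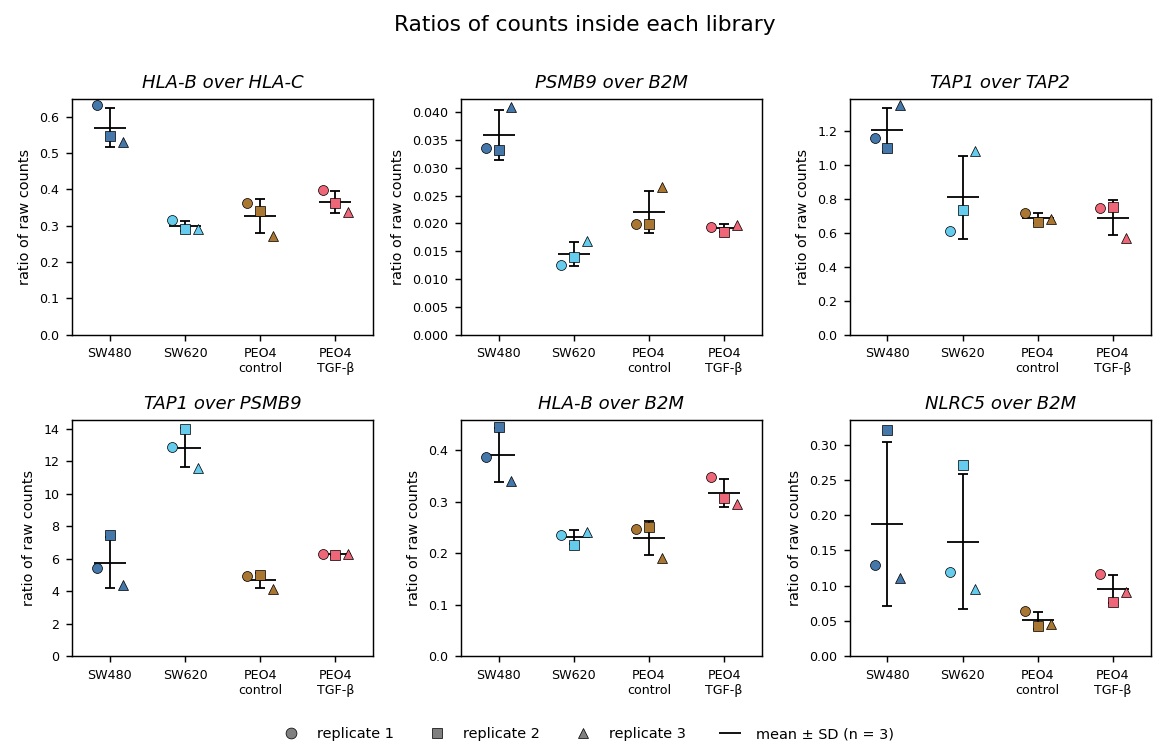
Ratios of raw counts within each library (vertical axes from 0) for 6 gene pairs, by group; symbols are replicates, and bars are the mean and SD of 3. HLA-B over HLA-C is 0.290 to 0.316 in SW620 and 0.532 to 0.632 in SW480, and NLRC5 over B2M is 0.0768 to 0.116 with TGF-β and 0.0426 to 0.0644 in PEO4 control.

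Around the members in PEO4, 2 of the 65 tested genes of the 5 lists passed (3.08%, beside 2.26% of all genes), and both were lower with TGF-β. CIITA, the class II counterpart of NLRC5, stood at 10.6, 14.3 and 19.6 CPM in control and at 7.55, 7.66 and 7.29 CPM with TGF-β (-1.03 ± 0.21, adjusted p = 0.0445). The interferon-stimulated gene IFI6 stood at 26.5, 15.1 and 19.7 CPM in control and at 12.4, 10.8 and 8.19 CPM with TGF-β (-1.01 ± 0.20, 0.0413). In both genes every treated library was below every control library. Of 20 tested interferon-stimulated genes, 1 was called and 19 had a negative estimate, with a median of -0.43 beside -0.02 over all genes. For 22 transcription factor and interferon signalling genes, of which 1 was called, the median was -0.08, and IRF1 stood at -0.35 ± 0.21 (adjusted p = 0.446). No gene was called by edgeR among 7 heavy-chain and class I-like genes (2 at an unadjusted p under 0.05), 8 proteasome genes (3) and 8 genes of loading and trimming (0).

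**Figure D3:**
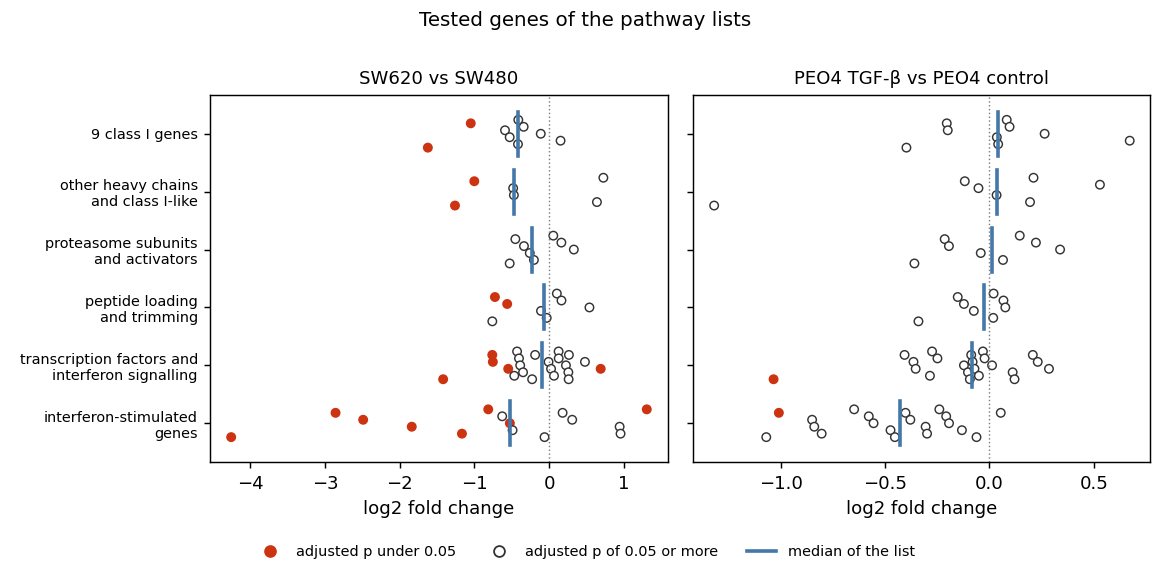
Log2 fold changes (horizontal axes, scales differ) of the tested genes of each list in the SW and the PEO4 comparison; each circle is a gene, filled where the adjusted p was under 0.05, and blue lines are list medians. The 9 class I genes have medians of -0.42 and 0.04, and the interferon-stimulated genes -0.52 and -0.43.

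PEO4 control was set beside each SW line to place the levels in order. Line, tissue of origin, donor and medium all differ here and cannot be told apart, and both comparisons use the same 3 control libraries, as does the TGF-β comparison. PEO4 control was higher than SW480 in 5 members, namely HLA-C (2.40-fold), B2M (2.29-fold), TAP2 (2.08-fold), TAPBP (1.82-fold) and HLA-E (1.31-fold). It was higher than SW620 in 8 members, all but NLRC5, from 1.49-fold for TAP1 to 3.99-fold for PSMB9. By edgeR the 5 of 9 stand beside 61.9% of 21006 genes called (30.1% higher), and the 8 of 9 beside 56.9% of 20780 genes (26.5% higher). The members' median log2 differences were 0.46 and 1.19, beside -0.05 and -0.14 over all genes.

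B2M, the light chain that every class I molecule needs, stood at 504, 364 and 396 CPM in PEO4 control, at 215, 116 and 215 CPM in SW480 and at 134, 95.8 and 196 CPM in SW620. All control libraries were above all SW libraries, by a log2 difference of 1.19 ± 0.21 from SW480 (adjusted p = 0.000503) and of 1.44 ± 0.23 from SW620 (0.000358). TAP2 stood at 68.8, 54.4 and 63.6 CPM in PEO4 control, at 33.8, 26.1 and 28.4 CPM in SW480 and at 35.8, 25.4 and 35.3 CPM in SW620. PEO4 was again the higher line in every library, with log2 differences of 1.06 ± 0.14 (4.53e-05) and 0.80 ± 0.16 (0.00166). TAP1, its partner, stood at 49.2, 36.1 and 43.5 CPM in PEO4 control, at 39.3, 28.8 and 38.3 CPM in SW480 and at 21.8, 18.7 and 38.3 CPM in SW620. TAP1 ranges overlapped in both comparisons, with log2 differences of 0.25 ± 0.15 (adjusted p = 0.165) and 0.57 ± 0.22 (0.0461). TAP1 over TAP2 was 1.10 to 1.35 in SW480, 0.662 to 0.716 in PEO4 control, 0.570 to 0.753 with TGF-β and 0.611 to 1.08 in SW620.

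By group means the order was PEO4 with TGF-β, PEO4 control, SW480 and SW620 for HLA-B, HLA-C, HLA-E and TAP1. B2M, TAPBP and PSMB9 had the control above the treated PEO4 cells, and TAP2 had SW620 above SW480. In no member did PEO4 with and without TGF-β separate on this scaling. The step from PEO4 to the SW lines separated HLA-C, HLA-E, B2M, TAP2 and TAPBP. Replicates of PEO4 control lay above those of SW480 without overlap in these 5 members, beside 33.2% of all tested genes (67.5% in either direction), and above those of SW620 in 7 members, all but TAP1 and NLRC5, beside 30.5% (63.6%). The step from SW480 to SW620 separated HLA-B and PSMB9. NLRC5 followed another order, with PEO4 with TGF-β at 35.9 ± 9.85, SW480 at 29.8 ± 6.92, PEO4 control at 22 ± 9.17 and SW620 at 20.2 ± 5.26 CPM (SD, n = 3), and each neighbour overlapped the next.

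Some of these calls turned on 1 library or on the scaling. TAP1 against SW620 lost its call without PEO4 control replicate 1 (adjusted p = 0.147) or 3 (0.0999). It also lost it without SW620 replicate 1 (0.169) or 2 (0.107), and with the GC correction (0.0673). Leaving out both SW libraries numbered 2 is the same fit here as leaving out SW620 replicate 2. HLA-E against SW480 lost it with all 12 libraries in 1 model (0.11) and without PEO4 control replicate 1 (0.101), where NLRC5 was called lower in PEO4 (-0.83, 0.00735). HLA-B against SW480 was called without a count filter (0.48, adjusted p = 0.0126), without PEO4 control replicate 3 (0.64, 0.0205) or without SW480 replicate 1 (0.63, 0.0328). The fit without a count filter also called NLRC5 lower in PEO4 control than in SW480. Scaling by total counts moved the median of all genes to -0.28 against SW480 and -0.31 against SW620. With it HLA-E lost its call against SW480 (0.16, adjusted p = 0.222), NLRC5 was called lower there (-0.73, 0.0356), and TAP1 lost its call against SW620 (0.0686).

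**Figure D4:**
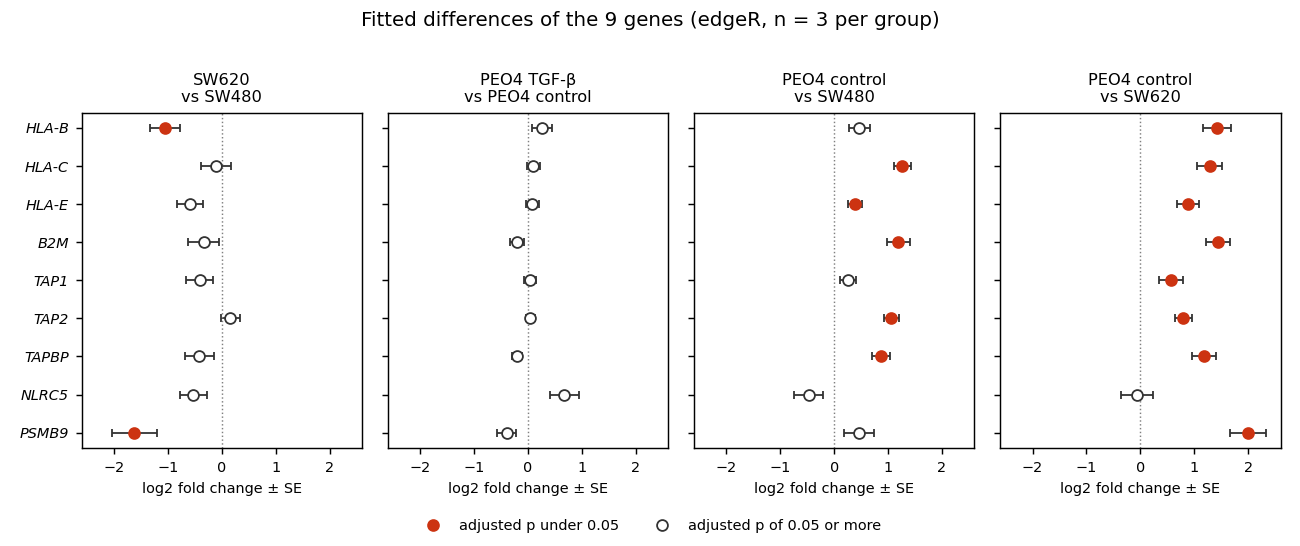
Fitted log2 fold change of each member (horizontal axes, bars are SE) in the 4 comparisons, second-named group as base; filled points had an adjusted p under 0.05 by edgeR. SW620 falls below SW480 for HLA-B and PSMB9, no member is filled for TGF-β, and 5 and 8 members are filled for PEO4 control over SW480 and SW620.

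The 5 lists were read in the same way between PEO4 control and the SW lines, where 61.9% (SW480) and 56.9% (SW620) of all genes were called. Of 65 tested list genes, 49 (75.4%) and 42 (64.6%) were called, while the heavy-chain, proteasome and loading lists each stood near or below the share of all genes. Of 7 heavy-chain and class I-like genes, 2 were higher in PEO4 and 1 lower against SW480, and 3 were higher against SW620. HFE, the iron-regulating class I-like protein, was higher than in SW480 by 1.41 ± 0.24 and than in SW620 by 0.67 ± 0.24 on the log2 scale, and MICA was higher than in SW620 by 1.38 ± 0.23. FCGRT, the heavy chain of the neonatal Fc receptor, was the gene lower than in SW480 (-0.71 ± 0.15). CD1D, a lipid-presenting relative, had 13 to 18 counts in the control libraries, 0 in SW480 and 0 to 3 in SW620. Of 8 proteasome genes, 4 were higher and 1 lower against SW480, and 3 were higher against SW620, among them PSMB8 (1.23 ± 0.19 and 1.66 ± 0.23) and the activator subunit PSME1 (1.25 ± 0.18 and 1.10 ± 0.24). PSMB6, the constitutive subunit that PSMB9 replaces, was lower than in SW480 by -0.76 ± 0.19. PSME2 was higher in PEO4 by 0.61 ± 0.14 against SW480 and 0.78 ± 0.20 against SW620.

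Of 8 loading and trimming genes, 3 were higher and 1 lower against SW480, and 2 were higher against SW620. The peptidase ERAP2 stood at 93.6, 81.5 and 84.5 CPM in PEO4 control, at 12.1, 14.8 and 13.9 CPM in SW480 and at 6.65, 10.5 and 6.38 CPM in SW620, the clearest separation of that list. The chaperone calreticulin (CALR) was higher by 1.80 ± 0.19 and 1.54 ± 0.23, and PDIA3 was higher than in SW480 by 1.23 ± 0.17. Of 22 transcription factor and interferon signalling genes, 15 were higher and 3 lower against SW480, and 13 and 3 against SW620. IRF9, a factor of interferon signalling, stood at 17.8, 14.4 and 15 CPM in PEO4 control, at 2.27, 2.5 and 1.71 CPM in SW480 and at 1.74, 2.89 and 2.31 CPM in SW620. CIITA was higher by 2.76 ± 0.32 and 2.63 ± 0.33. RFXAP went the other way and was lower in PEO4 (-2.17 ± 0.27 and -1.52 ± 0.35). SOCS1 was higher than in SW620 by 2.24 ± 0.47.

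Of 20 tested interferon-stimulated genes, 18 were higher and 1 lower against SW480 and 18 were higher against SW620, with medians of 3.03 and 3.23. Placing the 3 genes with no SW480 library above 3 counts at the 3-count floor left the first median at 3.03. They lie above it either way, so this step could not move it. These 3 are IFI44, IFI44L and XAF1, at 14.5, 14.6 and 12 CPM in PEO4 control and at most 3 counts in any SW480 library. IFI27 stood at 223, 151 and 173 CPM in PEO4 control. Against SW620 the largest log2 differences were those of IFI27 (7.17 ± 0.31), IFITM1 (7.08 ± 0.57) and IFI44 (6.98 ± 0.40). The SW620 libraries held only 2, 3 and 26 counts of IFITM1 and 1, 1 and 4 of IFI44. NLRC5, itself an interferon-inducible gene, had log2 differences of -0.47 ± 0.26 from SW480 (adjusted p = 0.142) and -0.06 ± 0.30 from SW620 (0.885) in the same libraries.

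Across the 12 libraries the members other than NLRC5 varied together. Pearson's r of log2 CPM was 0.989 for B2M and TAPBP, 0.979 for HLA-B and HLA-E, 0.978 for HLA-C and B2M and 0.632 for TAP2 and PSMB9, the lowest pair among those 8. NLRC5 had r of 0.138 (TAP2) to 0.424 (HLA-B) with the other members. The points share 3 lines, 4 groups and their library depths, so these values describe the 12 libraries only. Among 12186 genes with a mean of at least 5 CPM, the 5 most like TAP1 were COPS7A (0.983), SUPT4H1 (0.979), HLA-E (0.975), PTPA (0.975) and CLTA (0.971). The 5 most like NLRC5 were CASTOR3 (0.911), STX1A (0.893), ZNF514 (0.885), STAG3 (0.878) and PROB1 (0.872), none of which is a member.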

How the data were processed

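Per the submitters' processing notes, Trimmomatic 0.36, STAR 2.5.2b, featureCounts, Subread 1.5.2, DESeq2 and the build GRCh38 were used, and their roles, the annotation and the strand setting are not given in the sources used here. The authors deposited a table of whole-number counts for 57500 gene identifiers. Per the file headers and their values, the deposited comparison tables hold a signal per library (count divided by a size factor), a log2 fold change and a p-value with its adjusted p-value, and only the log2 fold change and p-values were used.

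For each comparison the 6 libraries concerned were analysed alone in edgeR 4.0.16 (R 4.3.3), with filterByExpr, TMM scaling, the quasi-likelihood test (two-sided) and Benjamini-Hochberg adjustment over all genes tested, at a threshold of 0.05. Printed levels are CPM over TMM-scaled totals of all 12 libraries, and lengths come from GENCODE 29, in which 56898 identifiers were found. The correlations use log2 CPM with a prior count of 2. The script was tested on simulated data with 200 changed genes. Alternatives were DESeq2 1.42.0, limma-voom (limma 3.58.1), RLE and total-count scaling, no count filter, at least 10 counts in every library, 1 model over all 12 libraries, replicate number as block and leaving out each library. A GC correction, the same with the block, and leaving out both SW libraries numbered 2 were chosen after seeing the data. All 9 members were named whatever their result, together with the 3 called genes of largest change in each of 5 lists, which hold 68 symbols as used. A planned sum over heavy chains and 2 further list genes are not reported here. Members and lists were chosen with earlier results of these data known. Replicates differed by 9.92 to 61.2 times counting noise (chi-square per degree of freedom), so none was a repeated library. The labels say only that replicates are biological, so p-values measure the spread between these libraries.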

Additional observations from a re-analysis of the deposited data

How the results depend on the processing

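The counts of called members and genes moved with single libraries and with the block. Leaving out each library in turn gave 0 to 5 called members and 4253 to 7419 called genes for SW620 against SW480, and 0 to 1 members and 72 to 1080 genes for TGF-β. HLA-C (SW lines) ranged from -0.47 to 0.16, TAP1 and TAP2 (TGF-β) from -0.046 to 0.135 and from -0.015 to 0.11, and NLRC5 (PEO4 control over SW620) from -0.40 to 0.30, and these 4 stayed uncalled. For TGF-β, 922 genes were called by DESeq2, 1457 without a count filter (1 member) and 165 with all 12 libraries in 1 model. NLRC5 over SW620 turned positive with DESeq2 (0.11), RLE (0.053), no filter (0.12), all 12 libraries (0.092) and without the SW libraries numbered 2 (0.30). With the GC correction TAP1 under TGF-β was at -0.016.

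Same-numbered libraries deviated together unevenly (correlations of 0.016, 0.67 and 0.567 for the SW lines and 0.291, -0.14 and 0.481 for PEO4), so the numbers were not taken as pairs, and SW480 replicate 1 went best with SW620 replicate 3 (0.267). With the replicate block 7 members (all but HLA-C and TAP2) and 10667 genes were called for the SW lines (7 and 11102 with the GC correction), and 2 members and 2102 genes for TGF-β (HLA-B and NLRC5). HLA-B in PEO4 control over SW480 was also called with it (adjusted p = 0.0151, edgeR, and 0.0283 with the GC correction). For TGF-β the GC correction and block gave 2 members (TAPBP and NLRC5) and 2038 genes, with TAP1 at -0.018. Depth limits PSMB9 most among the members, with 26 to 70 counts in SW620.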
